A study of Homo sapiens with 6 samples.

Results

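The RNAs described here are the long noncoding RNAs whose symbol is LINC followed by a number, the placeholder name given to long intergenic noncoding RNAs, in REH cells. REH is an established cell line from acute lymphoblastic leukaemia of B-cell precursors, grown from human cells. Members were chosen by their name and by a measured value, a mean normalized count of at least 10 over all libraries. This took 99 of the 878 LINC-named rows, out of 26364 genes in all. One group of 3 libraries came from cells exposed to S3I-201 (50 µM, 6 h), an inhibitor of the transcription factor STAT3. The other 3 libraries came from cells given DMSO, its solvent, for 6 h. The labels state that the libraries came from separate experiments. The data are the authors' deposited table, which gives each gene 1 mean normalized count over all 6 libraries and a log2 fold change, with its p-value before and after adjustment. It holds no column of single libraries, so levels per group and the spread between replicates are not shown. Positive fold changes are read as S3I-201 over DMSO. The table does not name its reference. Its title names DMSO before S3I-201, an order that can be read as DMSO over S3I-201, and under that reading every direction given turns round. In bulk RNA, fewer cells of a type and less RNA per cell cannot be told apart.

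Long noncoding RNAs are transcribed and mostly spliced like messenger RNAs but are not known to be translated, although some LINC-named transcripts later proved to encode small proteins. Those with a known role can act at their own locus on a neighbouring gene, or as free RNA that binds proteins. LINC00657, now called NORAD, is the best studied RNA of this set and binds PUMILIO proteins, which repress messenger RNAs that carry the same recognition site. Many other members are known by name alone. The libraries were unstranded by the kit named in the labels, so reads of a LINC-named RNA and of a gene on the other strand of the same bases cannot be told apart.

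The level at which the members were expressed is shown by the plot of normalized counts per kb of exon. Per the authors' deposited table, the 99 members together held 0.124% of the summed mean normalized counts of all genes. Their median mean was 36.5, against 409.9 over all 11912 genes with an adjusted p. LINC00657 had a mean normalized count of 2864 and alone held 20.2% of the members' sum. Next per the authors' deposited table came LINC00689 at 1071, LINC01000 at 836, LINC00341 at 661, LINC00426 at 497 and LINC01578 at 391, and these 6 held 44.6% of the sum. Levels of different genes can be set against each other only per length, and exon lengths of GENCODE release 29 were found for 90 members. Per kb of exon LINC00657 again came first, with a mean normalized count of 536 per kb against a median of 13.6 per kb. LINC01420 followed at 215 per kb, then LINC00426 at 125 and LINC00493 at 124. LINC01420 and LINC00493 are now listed as protein-coding, under the names NBDY and SMIM26.

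**Figure D1:**
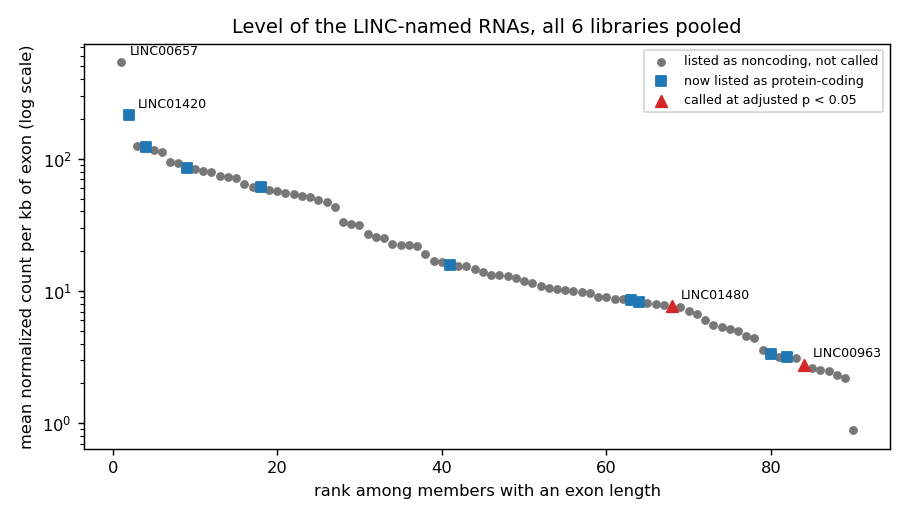
Mean normalized count per kb of exon (log scale) for the 90 LINC-named RNAs with an exon length, ranked from high to low, over all 6 libraries pooled. Squares mark members now listed as protein-coding and triangles the 2 members called at an adjusted p of 0.05; LINC00657 stands highest at 536 per kb and both called members lie in the lower part of the ranking.

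The recognition site of PUMILIO proteins is the feature for which LINC00657 is known, and its sequence shows it. The longest GENCODE transcript of LINC00657 held 15 copies of the motif TGTANATA on the transcript strand in 5339 bases, or 2.81 per kb. Of the 80 other noncoding members with a transcript sequence, 69 held no copy and the most in any was 3. Printed here are the 6 copies of LINC00657 that have the bases ctg just before the motif, with 11 bases on each side and the motif in capitals. The gene lies on the minus strand at chr20:36045618-36050960 (RefSeq, GRCh38.p14), and bases are counted from 1 at the 5′ end of the transcript. Part of this sequence is not unique, since 19.4% of the transcript matches another GENCODE gene at 95% identity or more.
LINC00657 site at base 761: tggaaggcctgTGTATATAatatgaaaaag
LINC00657 site at base 1140: cctcactactgTGTATATAgttgacaatgc
LINC00657 site at base 1442: ttacttatctgTGTATATAgtgtacataaa
LINC00657 site at base 2972: caaccctactgTGTATATAgcggacaaact
LINC00657 site at base 3275: ttactgtgctgTGTATATAgtgtatataag
LINC00657 site at base 3593: caatgctactgTGTATATAatggaaaactt

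The comparison asks which of these RNAs differed between S3I-201 and DMSO. An RNA is called at an adjusted p of 0.05, taken from the authors' DESeq2 result, which is adjusted over all 11912 tested genes. Of the 98 members with an adjusted p, 2 were higher with S3I-201, LINC00963 and LINC01480, and 0 were lower. At an unadjusted p of 0.05, 10 were higher and 2 lower. Over all tested genes 5.9% were called, 4.45% higher and 1.45% lower, beside 2.04% of the members. Unadjusted values under 0.05 came with 16.0% of all tested genes, 9.11% higher and 6.88% lower, against 12 of 98 members. The members' log2 fold changes had a median of -0.0027 and quartiles of -0.13 and 0.25, beside a median of -0.02 and quartiles of -0.16 and 0.15 over all tested genes. As many members, 49, had a positive value as a negative one.

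**Figure D2:**
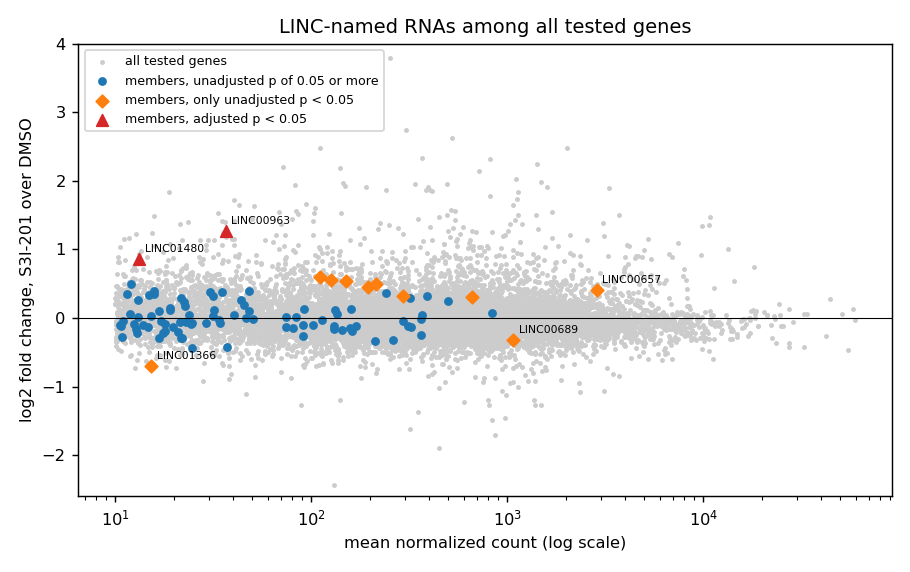
Log2 fold change of S3I-201 over DMSO against mean normalized count (log scale), with all 11912 tested genes in grey and the 98 tested LINC-named RNAs in colour. The 2 called members, LINC00963 and LINC01480, lie above 0 at low means, and the lowest member is LINC01366 at -0.70.

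LINC00963 had the largest change of the set. Per the authors' deposited table, its mean normalized count was 36.5 and its log2 fold change 1.26, or 2.40-fold higher with S3I-201 (adjusted p = 2.61e-05 by DESeq2). An SE was derived from the fold change and its p-value through the normal distribution. This implied SE was 0.25 and gives a 95% interval from 0.78 to 1.75. LINC00963 lies on the plus strand at chr9:129488660-129513686 (GRCh38, whole gene). None of its exon bases are shared with another gene of GENCODE release 29, while its span overlaps the RefSeq coding model LOC124900275. The nearest coding gene with a row in the table was NTMT1, an N-terminal methyltransferase, 95186 bases away. NTMT1 had a log2 fold change of 0.11 per the authors' deposited table and did not pass (adjusted p = 0.828 by DESeq2). The value of LINC00963 was thus high while that of its neighbour lay near 0.

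LINC01480 was the second called member and one of the rarer ones. Per the authors' deposited table, it had a mean normalized count of 13.3, which is 79.7 normalized counts summed over 6 libraries. Its log2 fold change was 0.86 per the authors' deposited table, or 1.81-fold higher with S3I-201 (adjusted p = 0.0244 by DESeq2, with an implied SE of 0.26). The 95% interval ran from 0.34 to 1.37. A gene this close to the minimum mean can pass it through the group in which it is higher. LINC01480 lies on the plus strand at chr19:41535498-41536904 (GRCh38, whole gene), overlaps no other RefSeq gene and shares no exon bases in GENCODE. Its nearest coding gene was CEACAM21, a cell adhesion molecule 12614 bases away. CEACAM21 had a log2 fold change of 0.62 per the authors' deposited table (unadjusted p = 0.0181 by DESeq2). It did not pass (adjusted p = 0.173 by DESeq2).

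The minimum mean left out 1 RNA with a change of that size. LINC00942 had a mean normalized count of 9.92, a log2 fold change of 0.92 and an unadjusted p of 0.000218 per the authors' deposited table. It has no adjusted p there. When the Benjamini-Hochberg adjustment took in all 16974 genes that have a p-value, its adjusted p was 0.00912. It was the only one of 191 LINC-named rows with a mean above 0 and under 10 to have an unadjusted p under 0.05. The share of all genes at such means was not counted, so this count does not set LINC-named rows apart. The rows next below the minimum per the authors' deposited table were LINC00893 at a mean of 9.82 with a log2 fold change of 0.35, and LINC00562 at 9.63 with 0.05. Just above it stood LINC01572 at 10.5 with -0.11, LINC01013 at 10.7 with -0.11 and LINC01389 at 10.8 with -0.28 per the authors' deposited table. The other 588 LINC-named rows had a mean of 0.

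The promoters of LINC00963 and LINC00942 are shown because these RNAs had the largest and second largest change among LINC-named rows with a p-value, a choice made after their values were seen. Each window runs from 250 bases before the start to 50 after it in RefSeq (GRCh38.p14), at chr9:129488410-129488709 and chr12:1500241-1500540, both on the plus strand. They were searched on both strands for TGACNNNGC, the antioxidant response element, TGATGNAA, a site of C/EBP and ATF factors, and TTCNNNGAA, a STAT site. Capitals mark a match.
LINC00963: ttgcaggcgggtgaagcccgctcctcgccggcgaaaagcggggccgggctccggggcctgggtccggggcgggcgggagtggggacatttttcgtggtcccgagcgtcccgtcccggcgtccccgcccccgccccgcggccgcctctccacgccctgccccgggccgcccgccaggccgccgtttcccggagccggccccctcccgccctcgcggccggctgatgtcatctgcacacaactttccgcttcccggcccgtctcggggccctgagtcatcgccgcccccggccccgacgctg
LINC00942: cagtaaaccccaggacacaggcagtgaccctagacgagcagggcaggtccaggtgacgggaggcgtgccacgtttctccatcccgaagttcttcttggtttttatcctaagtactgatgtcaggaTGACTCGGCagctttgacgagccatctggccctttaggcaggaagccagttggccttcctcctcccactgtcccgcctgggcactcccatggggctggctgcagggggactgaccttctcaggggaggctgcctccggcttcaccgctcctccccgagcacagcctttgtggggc

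The window of LINC00942 held 1 match to the antioxidant response element, 125 bases before the start, and the window of LINC00963 held none of the 3 motifs. A match is only a run of letters and not evidence of a bound factor. Of the 66 noncoding members with a promoter entry, 10 held the antioxidant motif, LINC00657 among them, or 15.2%, against 13.3% of all 35116 promoters. The STAT motif was in 6 of 66, or 9.09%, against 7.66% of all promoters, and the C/EBP and ATF motif in 2, or 3.03%, against 3.62%. The 6 members with a STAT motif were LINC01061, LINC01215, LINC01232, LINC00324, LINC01560 and LINC01355, with log2 fold changes of 0.50, 0.37, 0.24, 0.12, 0.11 and -0.26 in that order per the authors' deposited table. None of the 6 passed by DESeq2, and LINC01061 was the only one with an unadjusted p under 0.05, beside 5.9% and 16.0% of all tested genes. These 6 were named after their values were seen, and values of members with the other motifs are not listed here. Over all tested members, 49 had a positive value and 49 a negative one. Whether a motif goes with the fold change was not tested.

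Another 10 members had an unadjusted p under 0.05 and did not pass the adjustment, and 8 of them had positive values. LINC00476, now ERCC6L2-AS1, had a mean normalized count of 111 and a log2 fold change of 0.60 per the authors' deposited table (adjusted p = 0.0629 by DESeq2). Its exons share 5.43% of their bases with exons of ERCC6L2, a DNA repair helicase gene, which had 0.15 per the authors' deposited table (adjusted p = 0.783 by DESeq2). LINC00174 had a mean of 151 and a log2 fold change of 0.54 per the authors' deposited table (adjusted p = 0.0633 by DESeq2). Its exons share 13.3% of their bases with those of other genes, none of them coding. LINC00174 was the one named member whose call changed with the abundance trend removed, where it passed (adjusted p = 0.0472). LINC00999 had 0.55 at a mean of 127, LINC01061 had 0.50 at a mean of 215, and LINC00909, now ZNF407-AS1, had 0.45 at a mean of 195 per the authors' deposited table (adjusted p = 0.109, 0.0755 and 0.150 by DESeq2, in that order). LINC01176, among the 5 largest positive values not called, had 0.50 at a mean of 12.0 per the authors' deposited table (adjusted p = 0.332 by DESeq2).

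The abundant members had the smaller errors. LINC00657 had a log2 fold change of 0.41 per the authors' deposited table, with an implied SE of 0.16 and a 95% interval from 0.10 to 0.72, and did not pass (adjusted p = 0.122 by DESeq2). LINC00689 had -0.32 per the authors' deposited table, with an interval from -0.59 to -0.05 (adjusted p = 0.192 by DESeq2). LINC00689 shares 22.1% of its exon bases with VIPR2, a neuropeptide receptor gene, whose own mean normalized count was only 4.68 per the authors' deposited table. LINC01000 had 0.07 and LINC00426 0.24 on the log2 scale per the authors' deposited table, both with an interval that spans 0. LINC00341 had 0.30 (adjusted p = 0.225 by DESeq2) per the authors' deposited table. Its locus is now part of SYNE3, a nuclear envelope gene with a row of its own, and SYNE3 had 0.19 there. LINC00265 had 0.32 at a mean of 293 per the authors' deposited table (adjusted p = 0.269 by DESeq2), and 40.7% of its transcript matches another GENCODE gene.

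**Figure D3:**
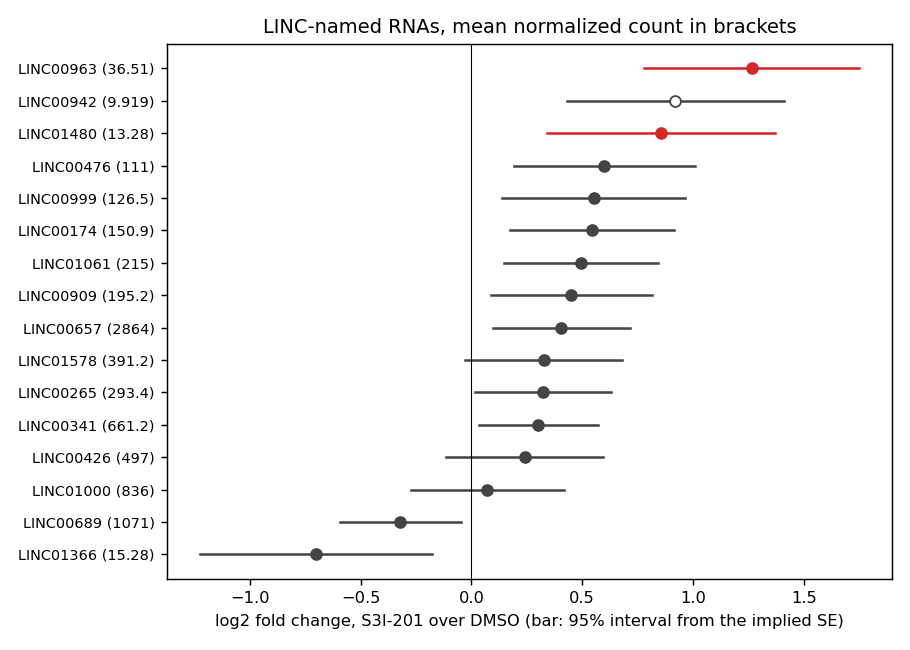
Log2 fold change of S3I-201 over DMSO with its 95% interval from the implied SE, for the 12 members with an unadjusted p under 0.05, the 6 most abundant members and LINC00942 (open circle, no adjusted p), with mean normalized counts in brackets. The 2 called members, in red, and LINC00942 have intervals that start above 0.3, and the intervals of LINC00426, LINC01000 and LINC01578 span 0.

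On the lower side no member passed. The most negative value belonged to LINC01366, with a mean normalized count of 15.3 and a log2 fold change of -0.70 per the authors' deposited table, with an interval from -1.22 to -0.18 (adjusted p = 0.109 by DESeq2). LINC01413 had -0.44, LINC01311 -0.42, LINC00342 -0.34 and LINC01224 -0.33 on the log2 scale per the authors' deposited table, with adjusted p-values from 0.445 to 0.508 by DESeq2. LINC00342 is uncertain in another way, since 99.9% of its transcript matches another GENCODE gene at 95% identity or more. The same holds for LINC01347 and LINC01296, matched over their whole length, for LINC00115 over 94.1% and for LINC00894 over 50.8%. These 5 were the members with more than 50% of the transcript matched elsewhere, of 81 aligned, and how the authors' counting treated such reads is not given in the sources used here. LINC00649 had a mean of 222 and a log2 fold change of 0.25 with no p-value per the authors' deposited table.

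The width of the intervals varied with the level. The deposited fold changes appear shrunken towards 0, so the implied SE is that of shrunken values, and the intervals of rare members do not show how large an unshrunken difference could be. The 95% half-width of the log2 fold change ran from 0.27 to 0.52 over the tested members. Of the 96 members that were not called, 93 had an interval within 1 on either side of 0 and 13 within 0.5. Members with a mean of 10 to 30 were 42 in number, with 1 called and a median log2 fold change of -0.07, where 3.18% of all 1070 tested genes of that range were called and their median was 0.06. In that range 2 members had an unadjusted p under 0.05, against 10.3% of all genes. At a mean of 30 to 100, 1 of 23 members was called and 1 had an unadjusted p under 0.05, against 4.97% and 13.1% of all genes. At 100 to 300, 0 of 21 tested members were called by DESeq2 and 6 had an unadjusted p under 0.05, against 5.13% and 14.3% of all genes. At 300 to 1000, 0 of 10 were called and 1 had an unadjusted p under 0.05, against 5.89% and 16.8%. Both members above 1000 had an unadjusted p under 0.05 and neither was called, against 19.9% and 8.04% of all genes. Both calls thus came from below a mean of 100, where the median implied SE of members was 0.25 to 0.27.

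The 2 members whose nearest coding gene was called were read beside that gene. LINC01578, now CHASERR, lies 1577 bases from CHD2, a chromatin remodeller gene that it is known to keep down. CHD2 was higher with S3I-201, with a log2 fold change of 0.79 and a mean normalized count of 2353 per the authors' deposited table (adjusted p = 0.00525 by DESeq2, with an implied SE of 0.21). LINC01578 had 0.33 per the authors' deposited table (implied SE 0.18) and did not pass (adjusted p = 0.379 by DESeq2). LINC00493, or SMIM26, lies 6017 bases from SEC23B, a coat component of vesicles that leave the endoplasmic reticulum. SEC23B was higher with a log2 fold change of 0.81 per the authors' deposited table (adjusted p = 3.17e-05 by DESeq2), while LINC00493 had 0.05 (adjusted p = 0.946 by DESeq2). These were the 2 called genes among 63 distinct nearest coding neighbours within 100 kb that were tested, or 3.17%, against 5.9% of all tested genes. An unadjusted p under 0.05 by DESeq2 came with 9 of the 63, against 16.0% of all tested genes.

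Head-to-head pairs, with starts within 2 kb on opposite strands, numbered 12 among genes with a strand in RefSeq or GENCODE. Beside 5.9% and 16.0% of all tested genes, 0 of the 12 coding partners passed by DESeq2 and 1 had an unadjusted p under 0.05. This was ZFP36L2, a gene for an RNA-binding protein that promotes messenger RNA decay, with a log2 fold change of -0.48 per the authors' deposited table (adjusted p = 0.0609 by DESeq2). Its partner LINC01126, whose start lies 605 bases away, had -0.19 per the authors' deposited table (adjusted p = 0.828 by DESeq2). LINC01184 and SLC12A2, an ion cotransporter gene, had -0.01 and -0.19 on the log2 scale per the authors' deposited table, and LINC00337 and ICMT, a methyltransferase gene, had 0.17 and -0.15. LINC00909 had 0.45 and its partner ZNF407 -0.03 per the authors' deposited table. These last 2 pairs were the only ones with opposite signs, and the other 10 of the 12 pairs had the same sign. Among the 64 tested pairs of a member and its nearest coding gene, 35 had the same sign and 29 opposite signs. That set holds most of the head-to-head pairs too. LINC01481, LINC01125, LINC00476 and LINC01560 overlap their head-to-head partner, and reads from any shared bases cannot be told apart. Whether signs matched more often than in other pairs of genes was not tested.

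**Figure D4:**
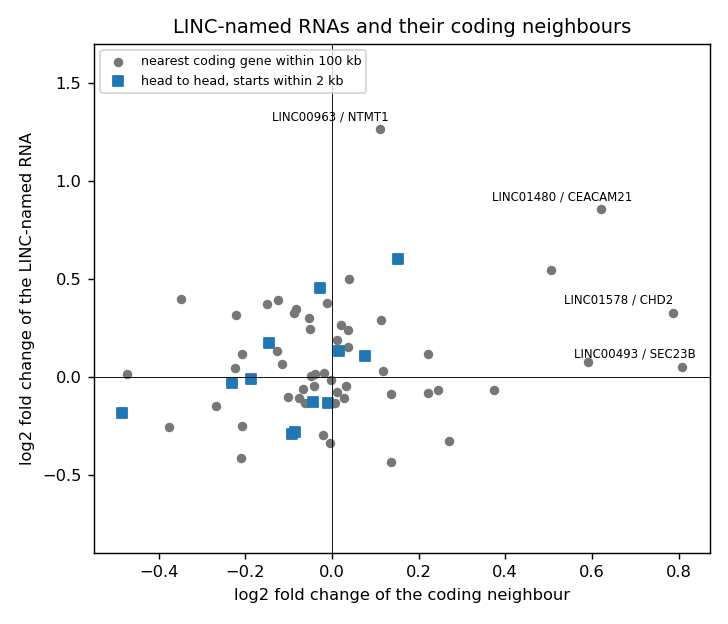
Log2 fold change of S3I-201 over DMSO of each LINC-named RNA against that of its nearest coding gene within 100 kb (circles) or its head-to-head partner (squares), where both were tested. Named pairs have a called member or neighbour; CHD2 and SEC23B lie far to the right at 0.79 and 0.81 while their LINC-named neighbours had 0.33 and 0.05.

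RefSeq now lists 11 members as protein-coding, several of them for very small proteins. By DESeq2 0 of these 11 passed and 1, LINC00341, had an unadjusted p under 0.05, with log2 fold changes from -0.29 to 0.30 over the group. Of all tested genes, 5.9% passed and 16.0% had an unadjusted p under 0.05. LINC01420, which encodes NBDY, a protein of the messenger RNA decapping complex, had 0.04 at a mean normalized count of 366 per the authors' deposited table. LINC00116, which encodes the mitochondrial protein mitoregulin, had 0.11 at a mean of 32.0 per the authors' deposited table. LINC00998, or SMIM30, had -0.19 at a mean of 162, and LINC00094, or BRD3OS, had -0.25 at a mean of 364 per the authors' deposited table. The others, LINC00959, LINC00672, LINC01125, LINC00176 and LINC00950, had log2 fold changes of -0.06, 0.03, -0.29, 0.19 and -0.22 in the same order per the authors' deposited table. The locus of LINC00950, which had a mean of 17.4, is now part of TMEM8B, a gene with a row of its own. TMEM8B had a log2 fold change of 0.03 at a mean of 203 per the authors' deposited table.

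Some members have roles that touch stress or growth control. LINC01021, now PURPL, is induced by p53 and had a log2 fold change of 0.37 at a mean normalized count of 30.5 per the authors' deposited table (adjusted p = 0.560 by DESeq2). LINC01604, or MINCR, a MYC-induced RNA, had -0.30 at a mean of 16.6 (adjusted p = 0.682 by DESeq2) per the authors' deposited table. LINC00461, the host transcript of a miR-9 gene, had 0.32 at a mean of 31.6 per the authors' deposited table (adjusted p = 0.631 by DESeq2). The intervals of these 3 all spanned 0.

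Other classes of long noncoding RNA gave the following counts beside the 2 of 98 members, with no test between classes. The share called over all tested genes was 5.9%, with 4.45% higher and 1.45% lower. Of 211 tested antisense RNAs, 6 were higher and 1 lower, or 3.32%, with a median log2 fold change of -0.04. Of 17 tested genes with an SNHG symbol, which marks hosts of small nucleolar RNAs, 1 was higher, SNHG1 at 0.43 on the log2 scale per the authors' deposited table (adjusted p = 0.0320 by DESeq2). MicroRNA host genes had 2 of 10 higher, MIR22HG at 1.72 and MIRLET7BHG at 0.85 per the authors' deposited table. Of 23 tested RNAs on a list of well-known long noncoding RNAs, 5 were higher, MIR22HG included, and 1 was lower. LINC-PINT, a p53-induced RNA that the name rule leaves out because no number follows LINC, had 1.41 at a mean of 34.9 per the authors' deposited table (adjusted p = 2.07e-06 by DESeq2). NEAT1, the scaffold of paraspeckles, had 0.59, ZFAS1, a host of small nucleolar RNAs without that symbol, 0.56 and PVT1, a neighbour of MYC, 0.68 per the authors' deposited table, and DLEU1 was lower at -0.66. The most abundant of that list, TUG1 and NEAT1, had mean normalized counts of 4579 and 2146 per the authors' deposited table, and TUG1 had -0.04 on the log2 scale (implied SE 0.15).

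Overlap with other genes limits the attribution of reads. RefSeq spans of 52 members overlap another gene and 47 do not, and 17 overlap a coding gene. The gene that a member is now listed under was not counted, so LINC00341 in SYNE3 and LINC00950 in TMEM8B are not among the 17. In GENCODE, 38 of 90 members share exon bases with another gene, 20 of them with coding exons, and LINC01089, with 51.3% of its exon bases shared, was the only one above 50%. LINC01089 had -0.05 at a mean of 294 per the authors' deposited table. Whether shared reads moved any of the values was not tested. The cells carried markers of their lineage, with 7 of 8 B-precursor markers at a mean of at least 10 and VPREB1 listed at 0, while 0 of 4 T-cell, 0 of 3 erythroid and 0 of 3 epithelial markers reached that mean. Among myeloid markers 2 of 4 did, MPO and CSF1R, and among fibroblast markers 1 of 3, COL1A1. By DESeq2 0 markers of any list were called, and their part in the members' values was not tested. Depth was read from genes with a single read. Their means gave the 6 libraries size factors between 0.573 and 1.27, which correspond to some 6557500 counts in the shallowest library and 14519600 in the deepest. The shallowest library lay on the side of positive fold changes. The fold changes of such genes were between 0.03 and 0.04 in size on the log2 scale, so that the deposited fold changes appear shrunken towards 0 and those of rare members may be understated.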

How the data were processed

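RNA-seq libraries of REH cells (S3I-201 and DMSO, 3 each) were made with TruSeq RNA v2, per the labels' protocols. The submitters' processing notes name hg38, bcl2fastq 2.19, Trimmomatic, Bowtie2, Picard, featureCounts and DESeq2, with no role or order. The annotation, strand setting and model formula are not given in the sources used here. As deposited, the mean normalized count is a signal that the authors computed with DESeq2, whose column names the table carries, as a mean over libraries. The deposited log2 fold change, p-value and adjusted p-value also come from the authors, with the column names of the authors' DESeq2 output. No values per library were used, so no test was refitted across all genes.

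S3I-201 was read as the numerator because DMSO, first in the alphabet, would by default serve as reference in the DESeq2 run of the authors. The order of names in the title of the deposited table can be read the other way. The members, lists and tests were chosen with earlier results of these data known. Named were called members, those with no p-value, the 6 most abundant, the 5 largest values not past in each direction, those at the minimum mean, coding members, well-known long noncoding RNAs past 0.05 or most abundant, and neighbours of called members. Members with a known role, members with a STAT motif, head-to-head pairs, neighbours of other members, LINC01089, LINC00265 and LINC00909 were named after their values were seen. P-values were also adjusted over every gene with one (Benjamini-Hochberg), and with the median fold change removed in 20 abundance bins; this was tested on simulated data. Symbols matched RefSeq GRCh38.p14 for 69 members directly and 30 by an older symbol. Transcripts were aligned with minimap2 2.31-r1302; Python 3.11.15, pandas 2.3.3 and scipy 1.17.1 were used.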

Additional observations from a re-analysis of the deposited data

How the results depend on the processing

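The count of called LINC-named RNAs is small, so single RNAs decide it. It was 1 at an adjusted p of 0.01, 5 at 0.1, 1 at a mean of at least 30, 0 at a mean of at least 100 and 1 among members that overlap no other gene, all higher with S3I-201. With the abundance trend removed it was 3, with LINC00174 added (adjusted p = 0.0472). It was 2 under adjustment over every gene with a p-value, a minimum log2 fold change of 0.5, members not now coding and members that share no exon bases, and 3 when rows of a mean from 5 upwards were taken and p-values were adjusted over every gene with one, the last 2 settings being chosen after seeing the data. Over all genes, 442 were called at 0.01 in place of 703. At 0.1 the count over all genes was 898, with 628 higher and 270 lower. It was 714 with the abundance trend removed and 644 under adjustment over every gene with a p-value. With a minimum log2 fold change of 0.5 it was 636. For the settings that change which members are taken, no count over all genes was made. The members' median log2 fold change lay between -0.04 with the abundance trend removed and 0.04 at a mean of at least 100, so its sign depends on the setting. Of 62 alternatives for single members 61 left the call as it was, and that of LINC00174 was the other. No paired analysis was possible because the table holds no values per library, and no replicate could be left out for the same reason. Intervals cover the spread the authors' model saw.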
